A study of Mus musculus with 272 samples.

Results

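The genes described here are the nucleoporin genes of the mouse, followed through 8 stages from the oocyte to the blastocyst. They were taken by name: symbols that start with Nup followed by a digit or a lower-case letter, together with Tpr, Rae1, Seh1l, Sec13, Pom121, Ndc1, Aaas and Ranbp2. The rule found 33 of the 15854 symbols in the expression table. Of these, 29 encode known parts of the pore and 2 more, Nup210l and Nup62cl, encode relatives of pore proteins, which makes 31. The last 2, Nupr1 and Nupr1l, encode nuclear protein 1 and a relative, which share the letters of the name but are not pore proteins, and they are kept apart below. The rule used no measured value. All 33 passed the filters on low values in each kind of comparison.

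The samples were germinal vesicle (GV) oocytes, which are arrested in prophase of meiosis with an intact nucleus, metaphase II (MII) oocytes, zygotes, 2-cell, 4-cell and 8-cell embryos, morulae and blastocysts. Each stage had 4 transcriptomes of whole oocytes or embryos, labelled as pools of 20, and 3 sucrose gradients, A to C, each loaded with lysate of about 100 oocytes or embryos and collected as 10 fractions. Cycloheximide, which holds ribosomes on their mRNA, was in the lysis buffer and in the gradients of every stage, and no stage had an untreated counterpart. The labels give no mouse strain, age or hormone treatment and do not say whether pools or gradients came from separate animals, so p-values measure the spread between these samples only. Values are CPM, the reads of a gene per 1000000 reads (1 M) of the library, and a change is a difference on the log2(CPM + 1) scale, which understates the changes of low genes.

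The nuclear pore is a ring of nucleoporins set into the nuclear envelope, through which proteins and RNA pass in and out of the nucleus. Its scaffold is built from the Y complex and the inner ring, which are anchored in the membrane by transmembrane nucleoporins. The central channel is lined with nucleoporins whose phenylalanine-glycine repeats bind transport receptors, and further nucleoporins form filaments on the cytoplasmic face and a basket on the nuclear side. Pores are taken apart when the envelope breaks down at meiotic maturation and at each mitosis, and they are rebuilt afterwards from stored and newly made subunits. The members fall into 8 genes of the Y complex, 6 of the cytoplasmic face, 5 of the inner ring, 4 of the central channel, 3 of the transmembrane ring and 3 of the basket. Nupl1 and Nupl2 are older symbols of Nup58 and Nup42, and the Nup98 gene also encodes Nup96, a Y complex protein.

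The sequences before the start sites of 3 genes are shown for the step from the 2-cell to the 4-cell stage, below: Nup133, with the largest rise, Tpr, with the largest rise outside the scaffold, and Nup62cl, which peaked in 2-cell embryos and made the largest fall. They were picked after their values were seen. They are the 250 bases upstream of each start in RefSeq (GRCm38.p6), read 5′ to 3′ on the strand of the gene, at chr8:123949266-123949515 on the minus strand, chr1:150392588-150392837 on the plus strand and chrX:140062569-140062818 on the minus strand. Capitals mark CCAAT boxes and GC boxes, the latter written GGGCGG or, on the other strand, CCGCCC.
Nup133: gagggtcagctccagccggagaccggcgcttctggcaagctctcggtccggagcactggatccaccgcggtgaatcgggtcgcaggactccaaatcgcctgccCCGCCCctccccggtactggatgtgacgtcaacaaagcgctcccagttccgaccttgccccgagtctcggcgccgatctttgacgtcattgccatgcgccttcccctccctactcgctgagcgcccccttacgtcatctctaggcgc
Tpr: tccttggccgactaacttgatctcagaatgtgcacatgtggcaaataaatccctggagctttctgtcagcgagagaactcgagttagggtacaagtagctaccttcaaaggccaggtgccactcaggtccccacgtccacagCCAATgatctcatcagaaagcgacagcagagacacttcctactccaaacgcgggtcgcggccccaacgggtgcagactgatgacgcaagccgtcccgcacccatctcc
Nup62cl: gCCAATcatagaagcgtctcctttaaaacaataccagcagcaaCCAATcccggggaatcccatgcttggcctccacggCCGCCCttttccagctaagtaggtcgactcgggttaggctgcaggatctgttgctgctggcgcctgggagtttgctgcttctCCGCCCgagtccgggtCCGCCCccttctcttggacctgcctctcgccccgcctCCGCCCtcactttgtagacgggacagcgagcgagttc
The stretch of Nup62cl held 6 such matches, and those of Nup133 and Tpr held 1 each. RefSeq promoters (250 bases before to 50 after the start, both strands searched) were at hand for 28 of the 33 members. A GC box was found in 71.4% of these 28, against 35.9% of 27025 promoters of all genes, and CCAAT in 42.9% against 37.9%. AAGATGGC, the core of a YY1 site, was found in 14.3% of the members' promoters against 2.88%, GCGCATGCG, an NRF1 site, in 14.3% against 1.81%, and CCGGAAG, a core bound by ETS factors, in 25% against 9.12%. TATAAA was found in 7.14% against 14.2%, and GGATTA, a core of Otx and Obox sites, in 3.57% against 7.16%. The members' promoters had a median GC content of 63.2%, against 52.7% over all promoters. A match is a run of letters, not a site shown to be bound.

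The 32 transcriptomes held 11.2 to 24.3 M reads and the 240 fractions 0.0102 to 43.2 M, with medians of 17.6 and 18.6 M. Of the fractions, 11 were under 0.5 M reads, all of them the first fraction of a gradient. The stages carried their markers: genes of the oocyte list summed to 16510 to 19150 CPM in GV oocytes and 6.27 to 11 in blastocysts, the 2-cell list reached 1628 to 2307 CPM in 2-cell embryos, and the blastocyst list 2348 to 2860 CPM in blastocysts. Of 7 listed cumulus and granulosa genes 2 were in the table, and their sum was 37.5 to 68.9 CPM from GV oocytes to zygotes, 5.60 to 12.9 in 2-cell embryos and at most 0.227 later. Nearly all of that sum was Cyp19a1, and its part in the results was not tested. In the fractions, the share of members' values at 0 was 35.7% in 2-cell, 39.1% in 4-cell and 27.5% in 8-cell embryos, and 7.29% to 15.2% at the other stages. The median fraction held 10.0 M reads in 2-cell and 8.50 M in 4-cell embryos, the lowest of the 8 stages.

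**Figure D1:**
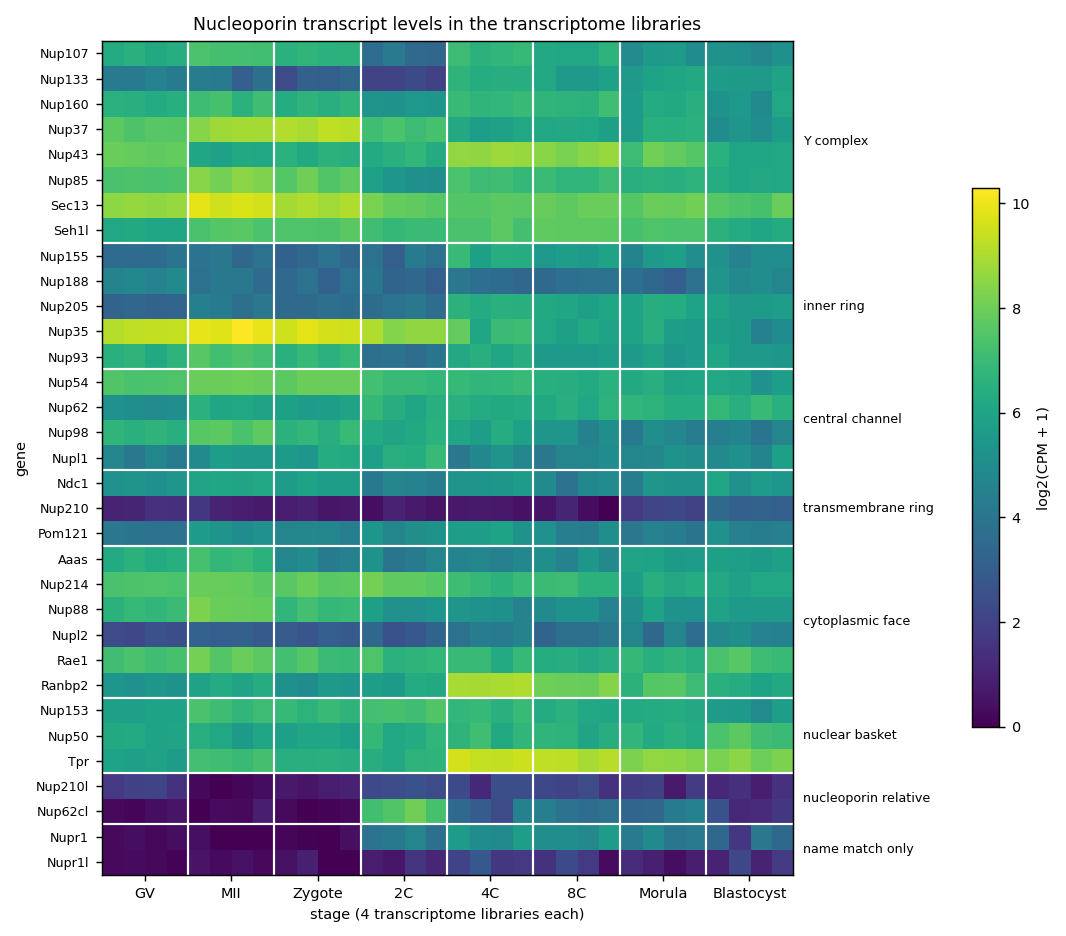
Heat map of the 33 members (vertical axis, grouped by role) in the transcriptomes of the 8 stages (horizontal axis). The colour is log2(CPM + 1), with each of the 4 libraries of a stage in its own column. Many genes are at their highest in MII oocytes, another group that includes Tpr and Ranbp2 in 4-cell embryos, and Nup62cl stands out in 2-cell embryos.

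The summed level of the 31 nucleoporins and relatives followed an up-and-down course over the 8 stages. It was 3119 ± 69.8 CPM (SD, n = 4) in GV oocytes, 5274 ± 241 in MII oocytes, 4041 ± 204 in zygotes and 2599 ± 221 in 2-cell embryos. It was 3822 ± 215 in 4-cell embryos, 3054 ± 191 in 8-cell embryos, 2434 ± 263 in morulae and 2024 ± 190 in blastocysts. Of the 4-cell sum, Tpr made up 715 CPM and Ranbp2 502 CPM. With the CPM of each gene divided by its exon length in kilobases, the 4-cell sum was below that of GV oocytes. It was then 823 ± 21.9 in GV oocytes, 1348 ± 85.6 in MII oocytes, 667 ± 57.7 in 2-cell and 773 ± 41.15 in 4-cell embryos. Of the 31 genes, 13 had their highest mean in MII oocytes, 7 in 4-cell embryos, 5 in blastocysts, 4 in 2-cell embryos and 1 each in zygotes and 8-cell embryos. CPM are shares of a library, and these pools are bulk samples, so in blastocysts, which hold several cell types, fewer cells of a type and less RNA per cell cannot be told apart.

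From GV to MII oocytes 26 of the 33 members had a positive change. Of the 33, 8 rose and 2 fell (limma, Benjamini-Hochberg adjusted p under 0.05 and a log2 change of at least 1), where 9.11% of the 14642 genes tested rose and 25.3% fell. The median change of the members was 0.69, against -0.11 for all genes. The libraries were made from poly(A) RNA and CPM are shares, so these changes do not count molecules of mRNA. Seh1l, a Y complex subunit, had 68.3, 74.7, 66.8 and 66.1 CPM in GV oocytes and 162, 190, 199 and 164 in MII oocytes. These groups were far apart, and the change was 1.36 (SE 0.12, adjusted p = 2.7e-12). Pom121, a transmembrane nucleoporin, had 16.2, 14.6, 13.6 and 13.6 CPM and then 49.8, 39.5, 31.1 and 35.8, a rise of 1.35 (SE 0.21, adjusted p = 1.3e-06). Tpr, the coiled-coil protein that forms the nuclear basket, rose from 50.7 to 62.3 CPM over its GV libraries to 122 to 153 CPM in MII oocytes, by 1.29 (SE 0.13, adjusted p = 7.1e-11). Nup37, a vertebrate subunit of the Y complex, rose by 1.18 (SE 0.17). The other 4 that rose were Nup88, Nup153, Nup62 and Sec13, by 1.06 to 1.18, and none of the 8 had overlapping libraries in the 2 stages. By role, 3 of 8 Y complex genes, 2 of 3 basket genes and 1 each of the central channel, cytoplasmic face and transmembrane ring rose. Without replicate A, left out at every stage, the rises of Sec13 (0.96) and Nup62 fell short of a log2 change of 1.

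The 2 that fell from GV to MII were a scaffold gene and a relative. Nup43, of the Y complex, had 246, 229, 219 and 229 CPM in GV oocytes and 64.3, 57.9, 75.1 and 69.5 in MII oocytes. It fell by 1.78 (SE 0.16, adjusted p = 7.4e-12), against the direction of the other Y complex genes called. Nup210l, a relative of the transmembrane Nup210, was low throughout, with 1.79 to 3.33 CPM in GV oocytes and 0 to 0.264 in MII oocytes, and fell by 1.64 (SE 0.26). How many genes were called at this step differed with the scaling and with the tool, and the cause was not tested. Quantile normalization moved the median of all genes from -0.11 to 0.16 and the calls among all genes from 1334 higher and 3711 lower to 3234 higher and 2578 lower. The members' calls moved with it to 15 higher and 2 lower. On recovered reads edgeR called 18 higher and 2 lower, and DESeq2 called 21 higher and 2 lower. Both also called more of all genes higher than limma did. Of 14687 genes edgeR called 2844 higher and 3996 lower, and DESeq2 called 3423 higher and 3862 lower.

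From MII oocytes to zygotes none of the members rose and 2 fell, where 5.79% of all genes tested rose and 4.48% fell. Aaas, also called aladin, is a nucleoporin of the cytoplasmic face. It had 154, 112, 123 and 95.7 CPM in MII oocytes and 25.3, 30.6, 17.7 and 21.2 in zygotes, groups that were widely separated. It fell by 2.31 (SE 0.21, adjusted p = 6.8e-11) and was still at 14.6 to 36.6 CPM in 2-cell embryos. Nup88, also of the cytoplasmic face, fell from 232 to 308 CPM to 107 to 148 CPM, by 1.06 (SE 0.19, adjusted p = 5.4e-05), a call that ended without replicate A (log2 change -0.91). The median of the members was -0.34, against 0 for all genes, and 27 of the 33 had a negative change.

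**Figure D2:**
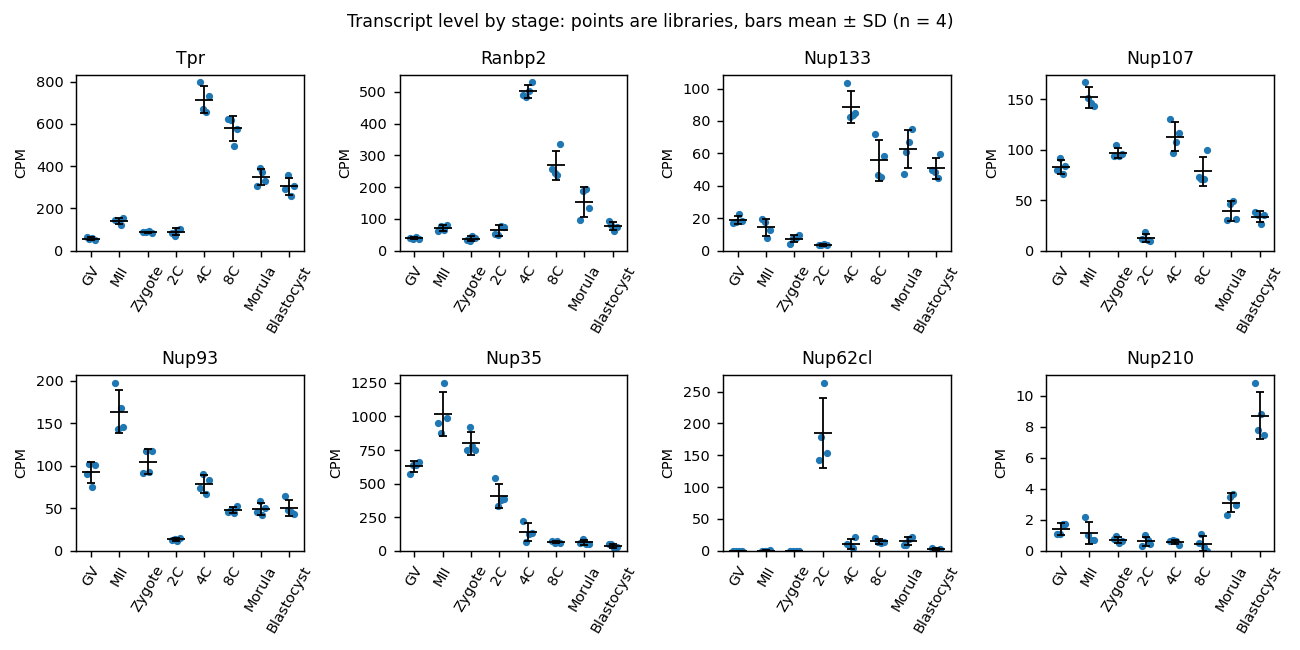
Transcriptome level of 8 members by stage, on a linear CPM axis. Each point is 1 of 4 libraries, and bars give the mean with its SD. Tpr, Ranbp2 and Nup133 step up between the 2-cell and 4-cell stages, Nup107 and Nup93 dip at the 2-cell stage, Nup35 declines from the MII oocyte on, Nup62cl peaks at the 2-cell stage, and Nup210 is highest in blastocysts.

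Between the zygote and the 2-cell embryo, in which the embryonic genome of the mouse is activated, 8 members fell and 3 rose. Among all genes 8.71% fell and 25.2% rose, and the median change was -0.08 over the members and 0.37 over all genes. Under quantile normalization 17.3% of all genes fell and 15% rose, with medians of -0.49 and -0.08, and 8 members fell and 2 rose. The rise of Nup210l ended, as did the fall of Sec13, and Nup133 fell (-1.73). Of the genes that fell, 5 of 8 belonged to the Y complex. Nup107 had 93.9, 104, 93.8 and 95.5 CPM in zygotes and 11.8, 18.4, 10.8 and 9.50 in 2-cell embryos, and fell by 2.88 (SE 0.17, adjusted p = 1.1e-16). Nup85 fell from 189, 263, 181 and 221 CPM to 57.7, 41.5, 35.3 and 34.0, by 2.33 (SE 0.15, adjusted p = 6.1e-16). Nup37 fell from 556, 501, 636 and 596 CPM to 140, 166, 131 and 155, by 1.95 (SE 0.17). In each of the 3 the lowest zygote library was above the highest 2-cell library. Nup160 and Sec13 also fell, by 1.18 and 1.10. Nup93, which holds the inner ring together, fell from 90.9, 118, 93.2 and 118 CPM to 12.8, 14.2, 11.7 and 14.9, by 2.87 (SE 0.15, adjusted p = 4e-18). The remaining 2 were Nup88 of the cytoplasmic face and the transmembrane Ndc1, which fell by 1.54 and 1.36. None of the 3 basket genes and none of the 4 central channel genes was called at this step.

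The 3 that rose into the 2-cell stage were the relatives of pore proteins and a gene matched by name. Nup62cl, a relative of the channel protein Nup62, had 0.197, 0, 0.0584 and 0.167 CPM in zygotes, at most 4 reads in a library, and 142, 179, 263 and 154 CPM in 2-cell embryos. Its log2 change of 7.35 (SE 0.33, adjusted p = 2.9e-20) depends on the pseudocount, since the zygote level is near 0. In 4-cell embryos it was back at 4.29 to 21.8 CPM. Nup210l rose from 0.474 to 0.945 CPM to 3.85 to 4.99 CPM, by 1.66 (SE 0.26), and stayed under 5 CPM in every library of the series' transcriptomes. Nupr1 is described with the name matches.

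From the 2-cell to the 4-cell stage 14 members rose and 4 fell, the highest count of the 7 steps in limma. On recovered reads edgeR and DESeq2 called 17 each, fewer than the 20 and 23 they called from GV to MII. Of 14687 genes they called 10232 and 10303 from the 2-cell to the 4-cell stage, and 6840 and 7285 from GV to MII. The 2-cell to 4-cell step also moved most of the transcriptome in limma, since 31.8% of all genes tested rose and 32.9% fell. The members' counts have to be read against these shares. The median change was 0.25 for the members and 0.02 for all genes, which quantile normalization put at 0.22. Both this step and the one before it use the same 2-cell libraries, so their values stand side by side and are not independent. In the Y complex 5 of 8 rose and 1 fell, in the inner ring 3 of 5 rose and 1 fell, on the cytoplasmic face 2 of 6 rose, and 1 of 3 basket and 1 of 3 transmembrane genes rose. No central channel gene rose and 1 of 4 fell.

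Nup133, a Y complex subunit at the stem of the Y, made the largest rise. It had 4.14, 7.87, 7.59 and 9.61 CPM in zygotes and 3.34, 3.37, 3.89 and 3.09 in 2-cell embryos, and then 104, 82.2, 83.9 and 84.8 in 4-cell embryos. Its 2-cell libraries were the lowest and its 4-cell libraries the highest of all stages, and the change was 4.34 (SE 0.22, adjusted p = 2.1e-19). Exons of Nup133 overlap those of Gm29773 and Gm45890 on the other strand, and whether reads were counted by strand is not given in the sources used here. Nup107 returned from 9.50 to 18.4 CPM to 130, 96.3, 108 and 116 CPM, a rise of 3.09 (SE 0.17, adjusted p = 3.1e-18). The Y complex genes Nup43, Nup85 and Nup160 rose by 2.18, 1.70 and 1.49. Nup43 thereby came back from its fall at maturation, with 392, 377, 438 and 412 CPM in 4-cell embryos against 219 to 246 in GV oocytes. In the inner ring Nup205 rose from 11.6, 14.0, 16.2 and 11.6 CPM to 96.8, 80.4, 91.5 and 89.6, by 2.67 (SE 0.15). Nup155 and Nup93 rose by 2.60 and 2.46, with no overlap between the libraries of the 2 stages.

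Outside the scaffold the largest rises were those of Tpr and Ranbp2, both very long peripheral proteins. Tpr had 84.3, 68.2, 99.2 and 104 CPM in 2-cell embryos and 797, 672, 656 and 735 in 4-cell embryos, a rise of 3.01 (SE 0.13, adjusted p = 1.5e-21). Its exons overlap those of Odr4 and Prg4 on the other strand over 1.68% and 1.94% of their length. Ranbp2, the SUMO ligase that makes up the cytoplasmic filaments, had 51.7, 47.5, 78.8 and 74.5 CPM and then 490, 483, 502 and 530, a rise of 3.0 (SE 0.18, adjusted p = 6.2e-17). The 4-cell libraries of both genes lay far above those of every earlier stage. Ranbp2 was lower again later, with 238 to 335 CPM in 8-cell embryos and 61.0 to 92.5 in blastocysts, while Tpr was at 259 to 357 CPM in blastocysts. Nupl2 and Ndc1 rose by 1.2 and 1.01. The call of Ndc1 ended without replicate D and without either of 2 of the 2-cell libraries, with a log2 change of 0.92 at the lowest.

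The 4 that fell from the 2-cell to the 4-cell stage came from 4 different parts of the list. Nup62cl fell by 4.14 (SE 0.33) from its peak. Nup35, an inner ring protein that bends the pore membrane, had 539, 332, 379 and 385 CPM in 2-cell embryos and 224, 65.7, 128 and 134 in 4-cell embryos, and fell by 1.66 (SE 0.24, adjusted p = 1.2e-07). Per kilobase of exon it had been the highest of all members at each stage from the GV oocyte to the 2-cell embryo. Nupl1, of the central channel, fell from 54.8, 85.2, 82.5 and 120 CPM to 16.0, 27.1, 39.1 and 26.0, by 1.64 (SE 0.27). Exons of Nupl1 overlap those of Gm49336 over 48.8% of their length and those of Atp8a2 over 6.69%, on the same strand, so how its reads were assigned is uncertain. Its highest 4-cell library was below its lowest 2-cell library. Nup37 fell again, to 51.8 to 73.4 CPM, by 1.22 (SE 0.17), so that of the Y complex genes it alone was called lower at both steps.

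After the 4-cell stage few members were called. From 4-cell to 8-cell embryos none was called in limma, where 0.451% of all genes rose and 2.14% fell. At an unadjusted p under 0.05, 17 members differed in limma and 12 in both edgeR and DESeq2, and neither tool called a member. Among all genes 3667 of 14642 differed so in limma, and 3227 and 3564 of 14687 in edgeR and DESeq2. Of the 33 members 26 had a negative change, with a median of -0.25 against -0.11 for all genes. From 8-cell embryos to morulae 1 member rose and 1 fell, against 8.18% and 3.7% of all genes (5.5% and 5.07% under quantile normalization, with the same counts of members). Nup210, the large transmembrane glycoprotein of the pore, had 0.498, 1.08, 0.259 and 0 CPM in 8-cell embryos and 2.33, 3.45, 3.68 and 2.95 in morulae, and rose by 1.53 (SE 0.21, adjusted p = 1.2e-06). Nup107 fell from 70.4 to 99.5 CPM to 30.2 to 48.6 CPM, by 1.00 (SE 0.17), and this call ended without replicate A and without replicate D (lowest size of the change 0.79).

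From morula to blastocyst 2 members rose and 5 fell, against 18.8% and 7.97% of all genes. Nup188, a large inner ring protein, had 12.5, 9.91, 7.32 and 13.6 CPM in morulae and 39.9, 27.9, 32.8 and 25.3 in blastocysts, and rose by 1.47 (SE 0.21, adjusted p = 4.9e-07). Nup210 rose again, to 10.8, 7.78, 8.80 and 7.44 CPM, by 1.24 (SE 0.21, adjusted p = 8.5e-06, and 7.8e-06 to 0.059 over its alternatives). Both had their highest mean of the series in blastocysts. Nup43 had 131, 269, 226 and 188 CPM in morulae and 95.3, 66.0, 65.2 and 68.0 in blastocysts, and fell by 1.42 (SE 0.16). Nup62cl fell by 2.23 (SE 0.33), from 9.37 to 21.7 CPM to 1.23 to 5.01 CPM. Seh1l and Nup37 each fell by 1.03. The call of Seh1l ended without replicate C (-0.94) and that of Nup37 without replicate B (-0.99) or C (-0.91). The last was Nupr1, described below. Under quantile normalization the calls at this step were 1 higher and 8 lower, against 12.2% and 11.8% of all genes.

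Over the 8 stages, the most abundant member of each role by mean CPM took its own course. Sec13, which the Y complex shares with the COPII coat of transport vesicles, was at 392 ± 19.4 CPM in GV oocytes (SD, n = 4), 818 ± 81.8 in MII oocytes, 500 ± 38.9 in zygotes and 191 to 236 at the mean of every later stage. Nup35 was at 1017 ± 161 CPM in MII oocytes and at 38.5 ± 14.6 in blastocysts. Nup54, of the central channel, was highest in MII oocytes at 250 ± 5.26 CPM, and its means were lower at each stage after that, down to 55.2 ± 14.3 in blastocysts. Its 2-cell and 4-cell means, 126 ± 15.4 and 116 ± 7.08, differed by less than their spread. Ndc1, which anchors the ring in the membrane, was at 65.3 ± 2.60 CPM in MII oocytes, 20.8 ± 3.43 in 2-cell and 42.9 ± 5.66 in 4-cell embryos.

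Per kilobase of exon, the members of one scaffold complex were far from equal, and 1 gene in each complex, Nup133 or Nup35, made much of the distance. These levels are mean CPM per kilobase of the gene's exons in GENCODE annotation. In the Y complex the highest gene stood above the lowest by a ratio of 45.9 in GV oocytes, 126 in MII oocytes, 165.5 in zygotes and 151.6 in 2-cell embryos. The ratio was 12.5 in 4-cell embryos, 17.5 in 8-cell embryos, 9.62 in morulae and 11.7 in blastocysts. The lowest gene was Nup133 up to the 8-cell stage, at 0.487 CPM per kilobase in 2-cell embryos, where Sec13 was at 73.8, and at 12.6 in 4-cell embryos, where Nup43 was highest at 158. In the inner ring the ratio was 192, 269.5, 280.2 and 109 from GV oocytes to 2-cell embryos and 20.5, 9.80, 10.7 and 4.63 from 4-cell embryos to blastocysts. Nup35 was the highest inner ring gene at every stage up to the morula, with 302 CPM per kilobase in MII oocytes and 18.6 in morulae, and Nup93 was highest in blastocysts at 11.8. Without Nup133 the Y complex ratios were 12.4, 17.1, 16.1 and 22.5 up to the 2-cell stage and 12.0, 11, 9.62 and 11.7 from the 4-cell stage on. Without Nup35 the inner ring ratios were 22.3, 34.3, 29.1 and 2.82, and then 9.23, 5.61, 6.65 and 4.63, so the 2-cell ratio was the lowest of the 8. In the basket the ratio stayed between 1.44 and 5.12 at all 8 stages. These ratios are a description with no test. The libraries were made from poly(A) RNA, and whether they weigh the genes of a complex evenly was not tested.

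**Figure D3:**
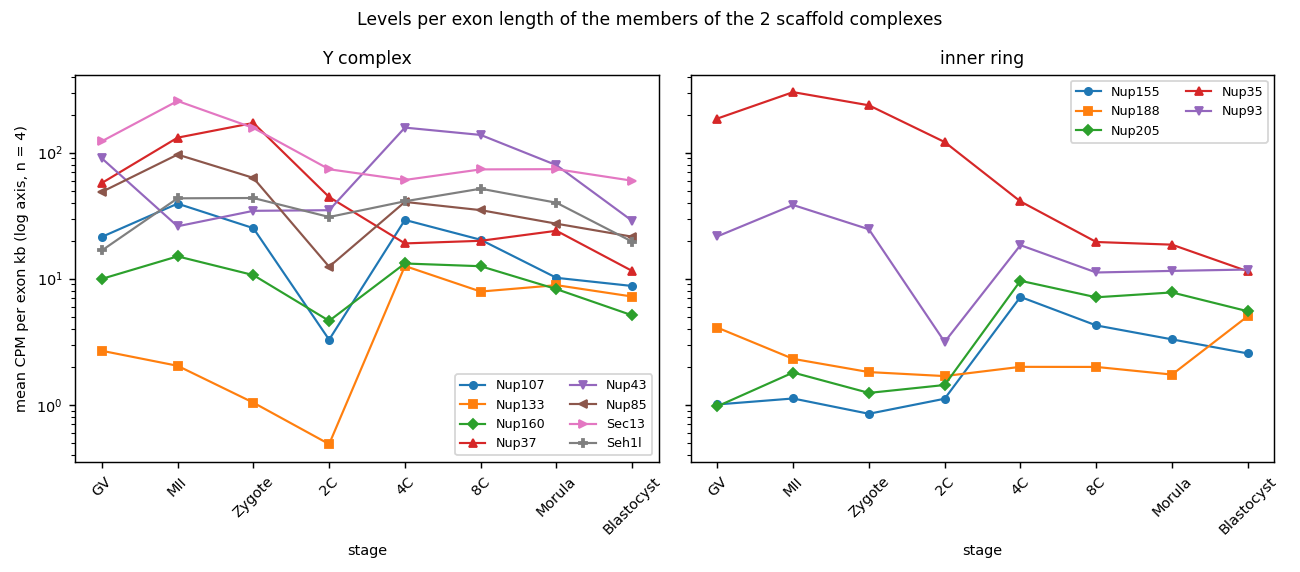
Mean transcriptome level per kilobase of exon, on a log axis, for the Y complex genes and the inner ring genes across the 8 stages. Each line is 1 gene and each point the mean of 4 libraries. The lines spread widely up to the 2-cell stage, with Nup133 at the bottom of the Y complex and Nup35 at the top of the inner ring. From the 4-cell stage on these 2 genes run closer to the others.

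Genes that work with the pore were counted from 4 lists of 60 genes, of which 59 were in the table: transport receptors (26), the Ran cycle that gives transport its direction (7), mRNA export (15) and the lamina and pore assembly (11). At the 2-cell to 4-cell step 36 of the 59 rose and 7 fell, against the 31.8% and 32.9% of all genes given above. They were 16 higher and 4 lower among the receptors, 5 and 0 in the Ran cycle, 7 and 3 in mRNA export, and 8 and 0 in the lamina and assembly list. Xpot, the tRNA exporter, went from 3.18 ± 0.635 to 95.4 ± 3.47 CPM (SD, n = 4), and Ipo5, an importin that carries ribosomal proteins and histones, from 41.1 ± 4.72 to 945 ± 107. In the other direction Kpna7, an importin alpha of oocytes, went from 402 ± 70.7 to 1.23 ± 0.835 CPM, and Kpna3 from 1004 ± 109 to 92.8 ± 10.9. At the other steps the counts of higher and lower calls among the 59 were 6 and 14 from GV to MII (10.2% and 23.7%, near the 9.11% and 25.3% of all genes). From MII to the zygote they were 5 and 3 (8.47% and 5.08%, against 5.79% and 4.48% of all genes). From the zygote to the 2-cell stage they were 13 and 3 (22% and 5.08%, against 25.2% and 8.71%). From the 4-cell to the 8-cell stage they were 0 and 1 (0% and 1.69%, against 0.451% and 2.14%). The last 2 steps gave 2 and 3 (3.39% and 5.08%, against 8.18% and 3.7%), and 4 and 6 (6.78% and 10.2%, against 18.8% and 7.97%).

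The gradients separate mRNA by the number of ribosomes it carries, with free mRNA and single ribosomes near the top and polysomes towards the bottom. Heavy is here the mean of fractions 6 to 10 and light the mean of fractions 1 to 5 of one gradient, so each stage has 3 values of each. The labels do not say which fractions held the polysomes, and CPM are shares within each fraction, so a heavy value does not count molecules. In GV oocytes no member differed between heavy and light (limma, 0.0461% of 15172 genes higher and 0.0264% lower in heavy), with 2 members at an unadjusted p under 0.05 in limma and 2 in edgeR, which also called none. Among all genes 828 of 15172 had such a p in limma and 682 of 15064 in edgeR. The numbers of members called higher and lower in heavy fractions were 2 and 0 in MII oocytes (1.71% and 1.52% of all genes), 1 and 0 in zygotes (2.14% and 0.87%), 4 and 1 in 2-cell embryos (6.43% and 11.8%) and 1 and 6 in 4-cell embryos (3.4% and 12.9%). They were 1 and 0 in 8-cell embryos (2.43% and 6.62%), 1 and 1 in morulae (1.64% and 4.17%) and 2 and 1 in blastocysts (0.633% and 2.11%). In zygotes 25 of the 33 members had a positive difference, with a median of 1.11 against -0.04 for all genes (0.92 and -0.01 under quantile normalization). In 4-cell embryos 25 had a negative one, with a median of -0.83 against -0.26 for all genes. There quantile normalization gave medians of -0.10 and 0.04, with 1 member higher and 3 lower (6.11% and 6.29% of all genes). In 2-cell embryos it gave 5 and 2 (8.94% and 9.22%). Of these 21 calls, 19 ended when 1 of the 3 gradients was left out at every stage, and none held in all alternatives. The fit took the spread of a gene over all stages together and did not pair the 2 sides of a gradient. With only the compared stage in the fit, no member was called in 2-cell, 4-cell or 8-cell embryos. At each other stage that fit called more members than the main fit. The values per gradient therefore matter more than the calls.

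**Figure D4:**
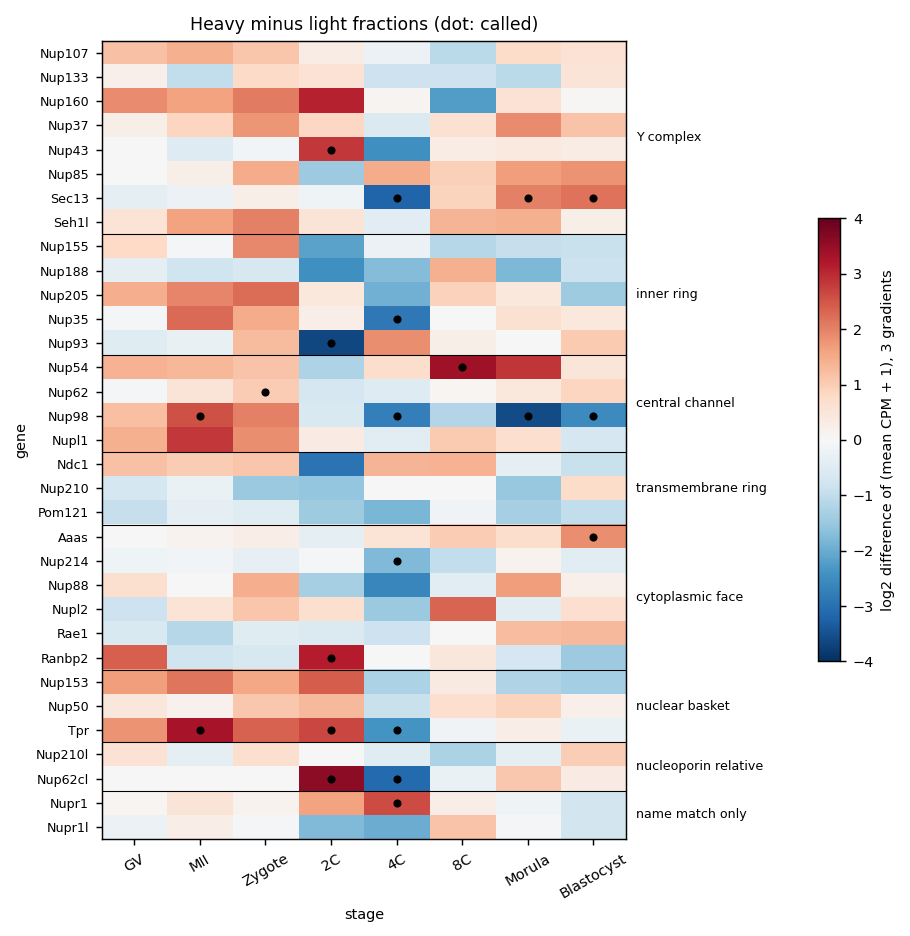
Difference between heavy (6 to 10) and light (1 to 5) fractions on the log2(CPM + 1) scale for the 33 members (vertical axis, by role) and 8 stages (horizontal axis), as the mean over 3 gradients. Dots mark the 21 called differences. The 4-cell column is mostly negative, with a median of -0.83 against -0.26 for all genes, the zygote column mostly positive, and Nup98 changes from positive in MII oocytes to negative in 4-cell embryos, morulae and blastocysts.

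Tpr was on the heavy side in MII oocytes and 2-cell embryos and on the light side in 4-cell embryos. In MII oocytes its light means were 4.96, 2.60 and 12.0 CPM in gradients A to C and its heavy means 84.8, 35.1 and 85.5, a difference of 3.30 (SE 0.74, adjusted p = 0.0051). The 2 sides did not overlap, but the adjusted p was 0.064 to 0.1 when gradient A, B or C was left out. In 2-cell embryos the light means were 15.3, 2.18 and 3.65 CPM and the heavy means 35.7, 41.2 and 39.9, a difference of 2.68 (SE 0.74, adjusted p = 0.0081), which ended without gradient B or C (adjusted p up to 0.12). In 4-cell embryos the light means were 46.9, 67.9 and 57.4 CPM and the heavy means 1.36, 36.8 and 14.3, a difference of -2.38 (SE 0.74, adjusted p = 0.021), which ended without gradient A or C (adjusted p up to 0.31). Again no heavy value reached the light ones. The 2-cell and 4-cell calls also ended with only the compared stage in the fit. The heavy minus light difference itself changed from the 2-cell to the 4-cell stage by -5.06 (SE 1.04, adjusted p = 0.0011), in a test added after seeing the data. At the same step the transcriptome level of Tpr rose 3.01 on the log2 scale, as given above.

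Nup98, a channel protein that also binds chromatin, was on the heavy side in MII oocytes and on the light side in 4-cell embryos, morulae and blastocysts. In MII oocytes it had 34.8, 21.7 and 14.3 CPM in light and 156, 96.8 and 159 in heavy fractions, a difference of 2.54 (SE 0.64, adjusted p = 0.016, up to 0.43 with a gradient left out, ended without B or C). In 4-cell embryos it had 25.3, 49.1 and 62.0 CPM in light and 6.92, 3.59 and 6.89 in heavy, a difference of -2.73 (SE 0.64, adjusted p = 0.0025, ended without B or C at up to 0.064). Nup98 also lost this call with only the 4-cell gradients in the fit. In morulae it had 28.2, 10.7 and 23.7 CPM in light and 0.663, 0.562 and 0.918 in heavy, a difference of -3.58 (SE 0.64, adjusted p = 0.00014). The morula call held without each gradient in turn (adjusted p 0.0039 to 0.025), though not in every alternative, whose highest adjusted p was 0.092. In blastocysts the values were 15.3, 10.2 and 14.7 CPM in light and 1.47, 0.148 and 4.00 in heavy, a difference of -2.55 (SE 0.64, adjusted p = 0.016, 0.1 to 0.37 with a gradient left out). In each of these 4 stages the sides did not overlap, and in GV oocytes and zygotes every heavy value was also above every light one, without a call.

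Sec13 went the other way, from light in 4-cell embryos to heavy in morulae and blastocysts. In 4-cell embryos its light means were 354, 108 and 146 CPM and its heavy means 1.68, 90.8 and 29.2, a difference of -3.19 (SE 0.62, adjusted p = 0.00032). The call held without each gradient in turn (adjusted p 0.00026 to 0.049, log2 -4.67 to -1.27), with gradient A carrying the widest gap. With only the 4-cell gradients in the fit the call ended. In morulae the light means were 84.9, 131 and 122 CPM and the heavy means 373, 562 and 430, a difference of 2.01 (SE 0.62, adjusted p = 0.043). In blastocysts the light means were 131, 216 and 171 CPM and the heavy means 644, 839 and 817, a difference of 2.16 (SE 0.62, adjusted p = 0.044). Neither of the later stages had overlapping sides, but both calls ended without gradient B or C (adjusted p up to 0.36 and 0.58) and with the gradient as a block (0.14 and 0.17). The change of the difference from the 4-cell to the 8-cell stage was 4.10 (SE 0.87, adjusted p = 0.0072).

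**Figure D5:**
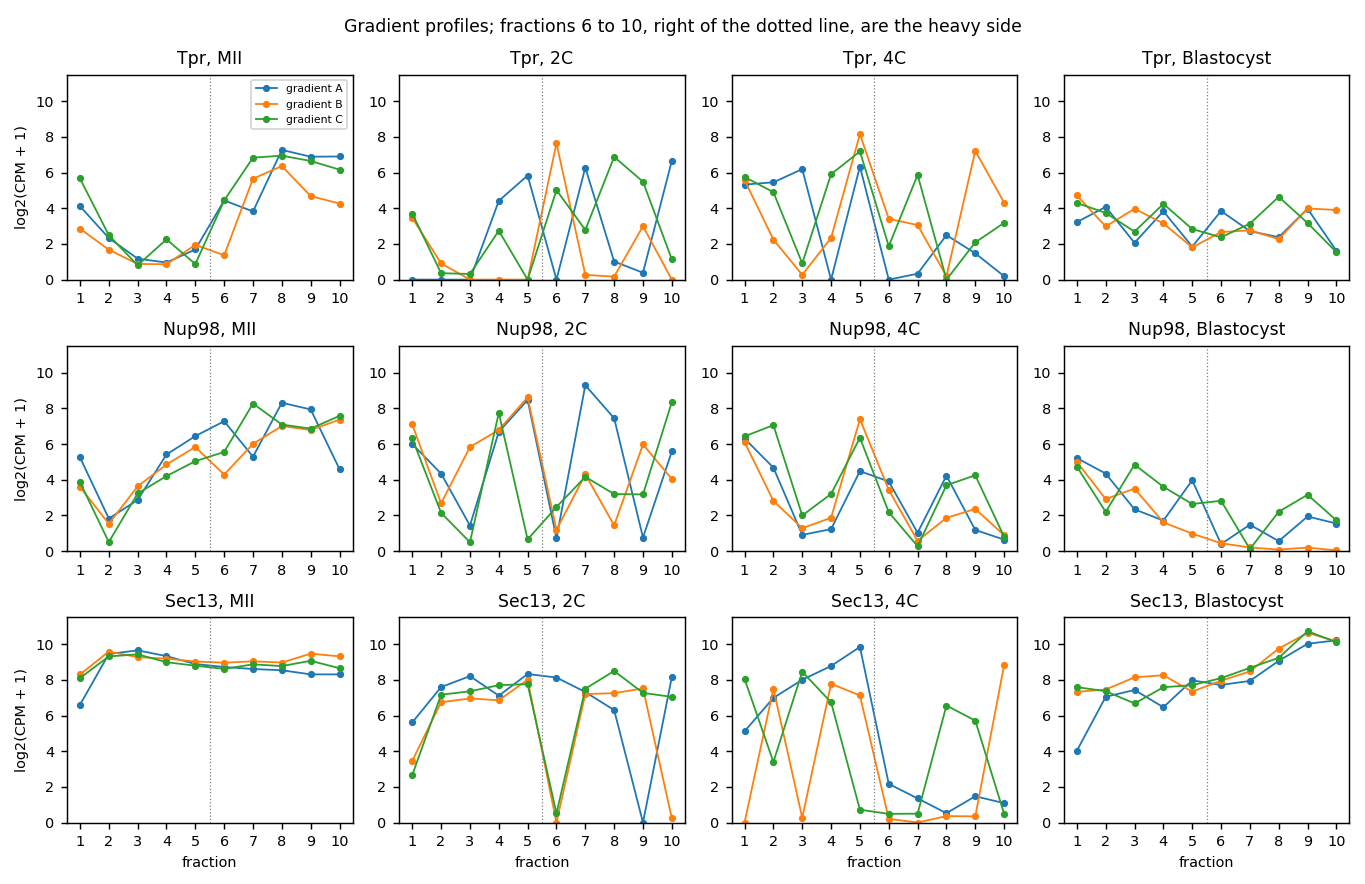
Level of Tpr, Nup98 and Sec13 in fractions 1 to 10 (horizontal axis, top to bottom of the gradient) in MII oocytes, 2-cell and 4-cell embryos and blastocysts, on a log2(CPM + 1) axis. Each line is 1 of 3 gradients. In MII oocytes Tpr and Nup98 rise towards the heavy fractions, in 4-cell embryos the 3 gradients of each gene spread widely, and in blastocysts Sec13 rises and Nup98 falls.

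The change of the heavy minus light difference between consecutive stages was called in 8 cases in all. From the zygote to the 2-cell stage 2 members were lower and none higher (2.91% and 1.73% of all genes), from the 2-cell to the 4-cell stage 4 were lower and 1 higher (7.22% and 4.52%), and from the 4-cell to the 8-cell stage 1 was higher and none lower (1.98% and 0.488%). The steps share their middle stages, so their values are not independent.

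The other calls within a stage rested on less even gradients. In 2-cell embryos Ranbp2 had 193, 12.0 and 1.10 CPM in heavy fractions against 0.0445, 0 and 6.58 in light, and Nup43 had 69.8, 0 and 29.4 against 0.0546, 0.938 and 1.96. Nup62cl, at its transcriptome peak, had 78.3, 0 and 26.9 CPM in heavy and 0, 0 and 0.310 in light. The sides of all 3 overlapped, since 1 gradient was at most 1.10 CPM on the heavy side. Nup93 was called lower in heavy fractions of 2-cell embryos, with 97.2, 29.8 and 20.8 CPM in light and 0.0829, 28.8 and 0.0663 in heavy. In 4-cell embryos Nup62cl (-3.12), Nup35 (-2.86) and Nup214 (-1.76) were called lower and Nupr1 higher, all with overlapping sides. With fractions 7 to 10 against 1 to 4 the difference of Nup214 was 0.16, of the other sign. Each of these 8 calls ended with a gradient left out. In 2-cell embryos Ranbp2 ended without A or B, and Nup43, Nup62cl and Nup93 without A or C (adjusted p up to 0.66, 0.5, 0.17 and 0.14). In 4-cell embryos Nup62cl ended without B or C, Nup35 and Nupr1 without A or B, and Nup214 without A or C (up to 0.21, 0.074, 0.3 and 0.46). Nup54 in 8-cell embryos (1.67, 2.13 and 1.09 CPM in light, 34.3, 21.9 and 23.8 in heavy), Nup62 in zygotes (239, 240 and 257, then 418, 618 and 485) and Aaas in blastocysts (88.2, 115 and 63.9, then 276, 396 and 284) had sides that did not overlap. Their differences were 3.39, 1.03 and 1.85, and their highest adjusted p with a gradient left out was 0.22, 0.3 and 0.31, where gradients A and B ended the first call and each of the 3 ended the others. The call of Nup62 also ended with the gradient as a block (adjusted p = 0.092).

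Heavy fractions were also compared between consecutive stages. From GV to MII no member was called (0.833% of 14524 genes higher, 3.22% lower), with 2 members at an unadjusted p under 0.05 in limma and 0 in edgeR, and from morula to blastocyst none was called either (0.0551% and 0.0207%), with 1 in limma and 0 in edgeR. Over all genes, 2155 and 653 of 14524 had such a p in limma at these steps, and 1417 and 866 of 14532 in edgeR. From MII to the zygote none rose and 1 fell (0.84% and 0.647% of all genes): Aaas, from 412, 734 and 478 CPM to 104, 118 and 68.4. Its change of -2.46 (SE 0.56, adjusted p = 0.023) went the way of its transcriptome, and it ended without any 1 of the 3 gradients (0.057 to 0.25). From the zygote to the 2-cell stage 2 rose and 4 fell (5.1% and 15.7%), and under quantile normalization 3 and 6 (9.98% and 9.67%), with the median of all genes at -0.51 and then -0.01. Ndc1 had 68.9, 31.1 and 47.6 CPM in heavy fractions of zygotes and 0.0454, 0.115 and 0 in 2-cell embryos, a fall of 5.5 (SE 1.01, adjusted p = 0.00047) that held in all alternatives tried. Nup93 (-5.43), Nup155 (-3.01) and Seh1l (-2.55) fell too, and Nup62cl and Nup210l rose. All 5 calls ended with a gradient left out: Nup93 and Nup210l without C (adjusted p 0.077 and 0.081), Nup155 without A or B, Nup62cl without A or C and Seh1l without any of the 3 (up to 0.34, 0.16 and 0.16).

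From the 2-cell to the 4-cell stage 10 members fell and 3 rose in heavy fractions, against 22.3% and 15.6% of all genes, and the members' median was -1.51 against -0.06 for all genes (-0.73 and 0.02 under quantile normalization, with 10 and 4 members and 20.8% and 22.3% of all genes). Nup214, a filament protein of the cytoplasmic face that binds export receptors, had 1797, 1566 and 2111 CPM in heavy fractions of 2-cell embryos and 23.7, 184 and 15.5 in 4-cell embryos. It fell by 5.42 (SE 0.70, adjusted p = 2.4e-06), with no overlap, and held in all alternatives tried. Its light means fell alongside, from 2137, 1759 and 1767 CPM to 143, 131 and 154, and its transcriptome went from 194 to 278 CPM to 96.7 to 135 CPM. In 2-cell embryos its fraction values thus stood far above its transcriptome, with a mean of 4058 CPM in fraction 4. Exons of Nup214 overlap those of Gm13609, Fam78a and Gm16534 on the other strand, over 2.07%, 1.83% and 2.6% of their length. The part of such reads in its values was not tested. Nup210l also held in all alternatives, with 10.7, 8.59 and 11.8 CPM in 2-cell embryos and 0.0519, 0 and 0.0458 in 4-cell embryos. The basket genes Nup153 (219, 46.6 and 295 CPM, then 0.311, 2.31 and 22.9) and Nup50 (414, 433 and 39.4, then 0.478, 13.5 and 33.7) fell by 4.95 and 4.42, and both calls ended without gradient A (adjusted p up to 0.11 and 0.05). The other 6 that fell were Nup37, Nup62cl, Nup98, Sec13, Nupl1 and Rae1. Ndc1 rose by 4.30 and Nupr1 and Nup155 by 3.36 and 2.62. Of the 9, Nup98 alone held without each gradient in turn, and the others ended at adjusted p up to 0.083 to 0.4, Nup37 and Rae1 without gradient A, Nup62cl and Sec13 without A or C, Nupl1 and Ndc1 without B or C, and Nupr1 and Nup155 without A or B. The call of Nup98 ended with only the compared stages in the fit.

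At the next steps the heavy fractions changed in fewer members. From 4-cell to 8-cell embryos 2 rose and none fell (5.6% and 0.943% of all genes): Nupl2, an mRNA export factor of the cytoplasmic face, from 0.176, 0 and 0.0667 CPM to 6.94, 26.7 and 12.5, and Sec13, from 1.68, 90.8 and 29.2 CPM to 79.7, 172 and 183. The values of Sec13 overlapped. Under quantile normalization 1 rose and none fell (2.75% and 2.76%). The call of Nupl2 ended without gradient B or C and that of Sec13 without A or C (adjusted p up to 0.18 and 0.17). From 8-cell embryos to morulae none rose and 4 fell (5.42% and 2.56%). They were Pom121 (68.9, 96.2 and 303 CPM, then 0.676, 10.1 and 19.4), Tpr (48.5, 58.3 and 15, then 3.90, 2.42 and 9.56), Nup98 and Nup62. Pom121 fell by 4.13 (SE 0.84, adjusted p = 0.003), and its call ended without gradient A (0.061). Exons of Pom121 overlap those of Nsun5 on the other strand over 11.9% of their length, and the part of such reads was not tested. Tpr and Nup62 ended without any of the 3 gradients and Nup98 without B or C (up to 0.33, 0.26 and 0.38).

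The change in heavy fractions was then set against the change in the transcriptome, as a difference of differences in one limma fit over 24 heavy means and 32 transcriptomes. From GV to MII, from MII to the zygote and from morula to blastocyst no member was called. Of 15165 genes, 6.94% and 1.27%, 0.93% and 1.35%, and 0.468% and 1.73% were higher and lower at those steps, and 3, 1 and 2 members had an unadjusted p under 0.05 in limma, the only tool used for this test. Over all genes 2720, 1796 and 1773 had such a p. The alternatives of this test also left out a fit without the filter, the mean of log2 values and the replicate block. From the zygote to the 2-cell stage 6 members were lower and none higher (26% and 1.58% of all genes). Quantile normalization moved the median of all genes from -0.89 to 0.04, and then 3 members were lower and 2 higher (9.03% and 9.3% of all genes), with the calls of Nup155, Nupr1 and Nup93 ended. Ndc1 (-4.14, SE 0.89, adjusted p = 0.00039) held in all alternatives, and the others were Nup62cl, whose zygote level is near 0, and Nup155, Nup93, Nupr1 and Seh1l. The call of Nup155 ended without replicate B, and those of Nup93, Nupr1 and Seh1l ended without A and without others, at adjusted p up to 0.078, 0.32, 0.31 and 0.079.

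From the 2-cell to the 4-cell stage 15 members were lower in heavy fractions relative to their transcriptome and 1 was higher (18% and 13.8% of all genes). All 3 basket genes were among the 15, with 5 of 8 Y complex genes and 4 of 6 of the cytoplasmic face. Tpr, whose transcriptome rose 3.01, had heavy means of 35.7, 41.2 and 39.9 CPM in 2-cell and 1.36, 36.8 and 14.3 in 4-cell embryos, and its difference of differences was -4.85 (SE 0.67, adjusted p = 1.9e-07, at most 0.0039 over its alternatives). Nup107, whose transcriptome rose 3.09, had 6.51, 37.5 and 6.08 CPM and then 0.104, 0.0171 and 66.0, and its value was -4.68 (SE 1.10, adjusted p = 0.00093, at most 0.082). In 4-cell embryos gradients A and B were near 0, and gradient C was higher than all of its 2-cell values. Nup50 (-4.60), Nup214 (-4.48), Nup153 (-4.46), Nupl2 (-3.61) and Nup210l (-3.15) held in all alternatives, as did Tpr. The calls of Ranbp2, Rae1, Nup37, Nup133, Nup160 and Nup188 ended without replicate A, and all but Rae1 also without another replicate (adjusted p up to 0.36 to 0.55). Ndc1 was the 1 member higher, by 3.28 (SE 0.89), and its call ended without gradient B or C (adjusted p up to 0.13).

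From the 4-cell to the 8-cell stage the test used the same 4-cell samples and gave values of the other sign: 9 members were higher and none lower, against 12% and 1.77% of all genes. Nupl2 (4.25, SE 0.89, adjusted p = 0.00069) held in all alternatives. Nup35 (3.50), Nup43 (3.36) and Nup54 (3.22) came next, and their calls ended without replicate A, A or D, and A, B or D (adjusted p up to 0.05, 0.15 and 0.27). The other 5 were Nup50, Sec13, Nup37, Nupr1l and Tpr, at 2.01 to 2.67. Of these Sec13 alone held without each replicate in turn, Nup50 and Nup37 ended without A, B or D, Tpr without A or D and Nupr1l without C or D (adjusted p up to 0.2, 0.46, 0.61 and 0.26). The call of Sec13 ended with only the compared stages in the fit. Quantile normalization moved the median of all genes from 0.40 to -0.04 at this step, with 4 members higher and 1 lower (5.57% and 6.52% of all genes). From 8-cell embryos to morulae 1 was higher, Nup62cl (2.78), and 2 were lower, Pom121 (-3.60) and Nup62 (-1.22), against 3.97% and 2.48% of all genes. Pom121 held in all alternatives, and the call of Nup62cl ended without replicate A, C or D and that of Nup62 without A or C (adjusted p up to 0.13 and 0.11). The depth of the 2-cell and 4-cell fractions and their share of zeros, given above, move with these results, and their part in them was not tested. Of 299 and 327 zeros among the members' values at these 2 stages, 10 and 4 stood in a fraction where both other gradients had at least 100 CPM.

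The 2 genes matched by name alone followed the embryo and not the oocyte. Nupr1 encodes a small stress-response protein. It had at most 0.350 CPM in any oocyte or zygote library, 14.3, 17.1, 24.5 and 13.0 at the 2-cell stage, 49.6, 31.4, 29.6 and 54.1 at the 4-cell stage and 10.2, 2.07, 15.9 and 10.0 in blastocysts. It was called higher at both steps up to the 4-cell stage, by 3.98 and 1.2, and lower from morula to blastocyst by 1.2, where the libraries overlapped and the call ended without replicate B (-0.51). Nupr1l reached 3.25, 6.17, 2.2 and 2.28 CPM in 4-cell embryos, from 0.536 to 1.95 in 2-cell embryos, and its rise of 1.06 ended without replicate B and without either of 2 of the 2-cell libraries (0.81 at the lowest).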

How the data were processed

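RNA was measured in 32 transcriptomes and 240 gradient fractions. Per the submitters' processing notes, the tools were Trim Galore 0.6.7, FastQC, HISAT2 2.2.1, featureCounts 2.0.1 and edgeR on GRCm39. The annotation and the strand setting are not given in the sources used here. The authors deposited CPM for 15854 gene symbols. Of these columns 38 sum past 1000000, and the 9 furthest past it were recorded as signal, deposited on the same scale. Symbols that repeat the values of another in every library (76 groups, 159 symbols) were taken once, which left 15771 symbols and touched no member. Dividing by the value of 1 read, estimated from the low values of each library, gave whole reads for 100% of the lower values (tolerance 0.05 of a read), and so the depths. Fraction 7 of 2-cell gradient B, where a read is worth close to the rounding step, stayed out of the count models. Column names carry the stage, fraction and letter of the labels, except that the 2-cell transcriptomes are lettered otherwise and were used as a group without letters.

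Changes were tested with limma 3.58.1 (R 4.3.3) on log2(CPM + 1), over genes with a CPM of at least 1 in 4 transcriptomes or 3 gradient means, with Benjamini-Hochberg adjustment over all genes tested. A call needs an adjusted p under 0.05 and a log2 change of at least 1. Transcriptomes, heavy means, and heavy with light means were each fitted over all 8 stages. The alternatives were a pseudocount of 0.1, no filter, quantile normalization, only the compared groups in the fit, fractions 7 to 10, the mean of log2 values over fractions, no fractions under 0.5 M reads (1 M is 1000000), each replicate letter left out at every stage (a 2-cell transcriptome library, at that stage only), the letter as a block, and edgeR 4.0.16 and DESeq2 1.42.0 on recovered reads. The scripts were tested on simulated data. Not every alternative was run for every comparison. DESeq2 was run on transcriptomes only, and heavy against transcriptome had no unfiltered fit, mean of log2 values, letter block or edgeR. In each comparison up to 4 called members per direction, those with the largest change, were named with their values, and the most abundant member of each role. The members and gene lists were chosen with earlier results of these data known. Letters were not taken to pair stages, since the labels do not state it. Transcriptomes of the same letter at consecutive stages correlated at a median of 0.0067 in their deviations (-0.1796 to 0.1703, 20 pairs). Heavy and light means of one gradient are paired by design and correlated at 0.0078 to 0.2534 (median 0.0973, 24 pairs). A value near 0 therefore cannot exclude a pairing of stages. The main test of heavy against light fractions and the added test of its change did not use the pairing within a gradient. The block on the gradient did. Exon lengths come from GENCODE for GRCm38 and promoters from RefSeq GRCm38.p6, and no coordinates were moved between builds. Exons of 10 members overlap those of other genes: Nup133, Nup188, Nup214, Nup35, Nup62, Nup88, Nupl1, Pom121, Seh1l and Tpr. The part of shared reads in their values was not tested.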

Additional observations from a re-analysis of the deposited data

Results flagged for a closer look

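In 16 of 248 groups of 4 transcriptome libraries (a member at a stage, with a mean of at least 1 CPM), 1 library stood far from the other 3, with a gap past Dixon's critical value for its share of the range. Chance gives about 1 in 20 groups. High libraries were those of Nup133 in GV oocytes (22.4 CPM) and 4-cell embryos (104), Nup155 in GV oocytes (14.4), Nup107 in zygotes (104) and 8-cell embryos (99.5), Nup214 (250), Nup35 (923) and Seh1l (198) in zygotes, Seh1l in 4-cell embryos (205), Nup88 in morulae (61.9) and blastocysts (59.9), and Nup43 (95.3) and Pom121 (35.6) in blastocysts. Low libraries were those of Ndc1 in morulae (18.9), Nup54 in zygotes (208) and Rae1 in 4-cell embryos (77).

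The heavy minus light difference differed between consecutive stages for 8 pairs of member and step, by limma's test of the change of the difference, a test chosen after seeing the data. For Nup93 the change was -4.90 from the zygote to the 2-cell stage (adjusted p = 0.04) and 5.48 from the 2-cell to the 4-cell stage (adjusted p = 0.0095), with the same 2-cell gradients in both. For Nup62 it was -1.69 from the zygote to the 2-cell stage (adjusted p = 0.011), with heavy above light in all 3 zygote gradients and below it in all 3 2-cell gradients. From the 2-cell to the 4-cell stage it was -5.06 for Tpr, -5.28 for Nup43, -6.69 for Nup62cl and -3.03 for Sec13, and from the 4-cell to the 8-cell stage it was 4.10 for Sec13.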

How the results depend on the processing

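Of 50 transcriptome calls, 38 held in all alternatives. The same was true of 3 of 26 calls in heavy fractions, 0 of 21 between heavy and light fractions and 9 of 34 of heavy against transcriptome. The last was not run without the filter, with the mean of log2 values, with the replicate block or with edgeR. Its share held is therefore not comparable with the others. Counts below are of members called, where they differ by over 1.5 times from the report, and the cause was not tested unless fewer samples or genes entered. In transcriptomes, GV to MII gave 17 by quantile normalization, 20 by edgeR and 23 by DESeq2, and MII to zygote gave 1 by quantile normalization.

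In heavy fractions quantile normalization gave 1 from GV to MII and 1 from the 4-cell to the 8-cell stage. With only the compared stages in the fit, GV to MII gave 3, MII to zygote 2, 2-cell to 4-cell 4 and 4-cell to 8-cell 0. With fractions 7 to 10, MII to zygote gave 0 and 8-cell to morula 1. With the mean of log2 values, GV to MII gave 4, MII to zygote 0, zygote to 2-cell 17 and 4-cell to 8-cell 7. With edgeR, MII to zygote gave 0, 4-cell to 8-cell 0 and 8-cell to morula 2.

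Between heavy and light fractions a pseudocount of 0.1 gave 1 in MII oocytes, 0 in zygotes, 0 in 8-cell embryos and 1 in morulae. Quantile normalization gave 4, 2 and 4 in MII oocytes, zygotes and 4-cell embryos, and the mean of log2 values 2, 4 and 2 in GV oocytes, MII oocytes and zygotes. With only the compared stage in the fit the counts were 2, 10, 16, 0, 0, 0, 7 and 7 in order of stage. With edgeR they were 1 in MII oocytes, 0 in zygotes, 2 in 4-cell embryos and 0 each in 8-cell embryos, morulae and blastocysts. Without the fractions under 0.5 M reads morulae gave 1. With the replicate block, which pairs heavy and light of one gradient, zygotes gave 0, and the counts at the other stages were 0, 3, 7, 10, 1, 2 and 2 from GV oocytes to blastocysts. For heavy against transcriptome, a pseudocount of 0.1 gave 10 from zygote to 2-cell and 5 from 8-cell to morula, and quantile normalization gave 1 from GV to MII, 5 from 4-cell to 8-cell and 6 from 8-cell to morula. With only the compared stages it gave 6, 4, 7, 1, 5 and 5 at GV to MII, MII to zygote, 2-cell to 4-cell, 4-cell to 8-cell, 8-cell to morula and morula to blastocyst.

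With each replicate left out, transcriptome counts over the 7 steps were 10 to 12, 1 to 4, 11 to 13, 16 to 19, 0 to 2, 1 to 4 and 5 to 8. In heavy fractions they were 0 to 0, 0 to 0, 3 to 4, 8 to 12, 1 to 5, 1 to 2 and 0 to 0, and between heavy and light, by stage, 0 to 0, 0 to 3, 0 to 0, 1 to 4, 4 to 5, 0 to 3, 1 to 2 and 0 to 1. For heavy against transcriptome they were 0 to 1, 0 to 1, 3 to 9, 13 to 17, 3 to 13, 2 to 4 and 0 to 0. Values with the other sign were those of Nup50 in heavy fractions from zygote to 2-cell (-2.17 with the mean of log2 values), Nup214 between heavy and light in 4-cell embryos (0.16 with fractions 7 to 10 against 1 to 4) and Nup35 for heavy against transcriptome from 2-cell to 4-cell (1.48 without replicate A, -2.01 without replicate C). The replicate block changed no transcriptome call at the 5 steps that do not involve the 2-cell stage, whose transcriptome columns carry no matching letter. In heavy fractions it ended the calls of Nup155 at both steps of the 2-cell stage and added Ranbp2 (3.47), Nup35 (-2.45) and Nupl2 (-2.41). The added test of the change of the heavy minus light difference was run in 1 setting only. At the lowest levels the depth of a fraction limits what can be detected, and a fraction at 0 CPM may hold the mRNA.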

Other observations

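A cytoplasmic polyadenylation element, the site by which CPEB regulates stored oocyte mRNA, was searched as TTTTAT or TTTTAAT on the sense strand in the last 100 bases of the GENCODE transcript with the longest sequence. Of the 26 members with a poly(A) signal (AATAAA or ATTAAA) there, 7 held it, 26.9%, against 18.3% of 15489 genes with a signal. They were Nup35, Nup37, Nup54, Nup62, Nup88, Nup98 and Rae1. Of the 8 members that rose from GV to MII, Nup37, Nup62 and Nup88 were among them, and Tpr, Nup153, Sec13, Pom121 and Seh1l were not. For Nup35 and Nup88 no distance from the match to the poly(A) signal was obtained, so a place before the signal is not shown for these genes. A match is a description of the letters in this window, and no test was made.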
